A study of Mus musculus with 2 samples.

Results

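The genes described here are 8 members of the Sox family of transcription factors, taken by symbol from the 32285 genes of the deposited count matrices. They are Sox1, Sox2 and Sox3 of the SoxB1 group, Sox21, which is usually placed in SoxB2, Sox8 and Sox9 of SoxE, and Sox4 and Sox11 of SoxC. All 8 symbols were found. Their levels were followed through the cell classes of the embryonic dorsal telencephalon, the part of the forebrain that forms the cortex.

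Cells came from 2 wild-type (WT) mouse libraries, replicates 2 and 4, of dorsal telencephalon at embryonic day (E) 14.5. GEO's labels name an EomesDot line and describe control animals of an Eomes-Cre line, while the study's methods name C57BL/6J embryos, so the exact genotype is given as WT only. There was 1 group, and all comparisons are therefore between classes of cells within the same libraries. Each library was made with the 10x Genomics 3′ kit v3.1, which counts unique molecular identifiers (UMIs) near the 3′ end of polyadenylated RNA.

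Sox proteins bind DNA through an HMG box, and usually act with partner factors. SoxB1 factors hold neural cells in the progenitor state, SOX21 can oppose them, SOX9 acts in the onset and upkeep of neural stem cells and later in gliogenesis, and SoxC factors switch on pan-neuronal genes as progenitors leave the cell cycle. In the dorsal telencephalon, radial glial cells (RGCs) give rise to intermediate progenitor cells (IPCs), which divide to form excitatory neurons. Cortical interneurons arrive from several sources outside it, among them the medial ganglionic eminence (MGE) of the basal telencephalon.

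The member genes are spread over 8 chromosomes. Sox2 (GRCm38.p6 chr3:34649995-34652461) has 1 exon and lies inside the long non-coding RNA gene Sox2ot (chr3:34560381-34677993) on the same strand, and Sox1 (chr8:12395519-12399555), also with 1 exon, lies inside Sox1ot in the same way. In neither pair do annotated exons overlap. Sox4 (chr13:28948919-28953699) and Sox11 (chr12:27334268-27342718) have 1 exon each on the minus strand. RefSeq promoter windows, from 250 bases before to 50 bases after the start, were found for 6 of the 8 members. Those of Sox2, Sox21, Sox4 and Sox11 are shown because Sox2 and Sox21 were higher, and Sox4 and Sox11 lower, in RGC-like than in IPC-like cells. Capitals mark matches to the E-box CANNTG, the motif of proneural factors such as NEUROG2, which reads the same on both strands.
Sox2 promoter, GRCm38.p6 chr3:34649745-34650044, plus strand: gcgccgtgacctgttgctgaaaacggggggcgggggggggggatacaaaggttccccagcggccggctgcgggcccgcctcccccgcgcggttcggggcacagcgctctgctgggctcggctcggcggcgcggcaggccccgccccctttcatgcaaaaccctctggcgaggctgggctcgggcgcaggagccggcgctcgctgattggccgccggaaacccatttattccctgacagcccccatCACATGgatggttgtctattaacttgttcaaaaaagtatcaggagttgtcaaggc
Sox21 promoter, GRCm38.p6 chr14:118236981-118237280, minus strand: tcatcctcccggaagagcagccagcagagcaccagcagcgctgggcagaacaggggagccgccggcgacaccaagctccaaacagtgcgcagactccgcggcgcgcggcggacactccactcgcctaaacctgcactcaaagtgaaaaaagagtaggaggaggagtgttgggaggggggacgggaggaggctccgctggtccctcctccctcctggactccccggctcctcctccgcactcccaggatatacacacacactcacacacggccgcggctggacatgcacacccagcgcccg
Sox4 promoter, GRCm38.p6 chr13:28953650-28953949, minus strand: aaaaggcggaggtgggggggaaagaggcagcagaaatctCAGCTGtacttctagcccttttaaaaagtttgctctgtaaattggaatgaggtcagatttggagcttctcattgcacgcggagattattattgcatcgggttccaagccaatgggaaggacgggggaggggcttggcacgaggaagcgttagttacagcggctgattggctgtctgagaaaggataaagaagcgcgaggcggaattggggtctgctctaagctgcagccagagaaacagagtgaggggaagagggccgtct
Sox11 promoter, GRCm38.p6 chr12:27342669-27342968, minus strand: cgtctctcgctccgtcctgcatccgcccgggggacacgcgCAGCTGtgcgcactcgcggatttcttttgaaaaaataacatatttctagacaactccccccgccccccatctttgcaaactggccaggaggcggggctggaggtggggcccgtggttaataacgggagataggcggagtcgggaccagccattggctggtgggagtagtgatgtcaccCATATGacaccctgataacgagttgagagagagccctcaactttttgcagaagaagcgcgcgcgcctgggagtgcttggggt
The Sox11 window held 2 E-box matches, the Sox2 and Sox4 windows 1 each, and the Sox21 window 0. At least 1 match was present in 72.3% of the 32851 promoter windows of this length, so these letters are common. The Sox4 window also held 4 matches to CCAAT on either strand, a motif present in 37.4% of the windows.

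Replicate 2 held 1712 barcodes with a median of 24295 UMIs, and replicate 4 held 2589 barcodes with a median of 18388. After filtering, 1199 and 1923 cells remained. They formed 22 clusters, which were named from marker genes that include no Sox gene, so the names may differ from those of the study and each is written as "-like". The main classes were RGC-like (272 and 444 cells), IPC-like (187 and 278), excitatory neuron-like (508 and 786) and MGE interneuron-like (54 and 99). Several clusters carried markers of a second class. Among IPC-like clusters, that of 168 cells also raised 7 of 12 RGC markers. Those of 148, 67 and 82 cells raised 7, 7 and 6 of 13 excitatory neuron markers. An excitatory cluster of 230 cells raised 5 of 9 IPC markers. Without clusters that raised at least 50% of the markers of a second class, 82 IPC-like cells remained. The classes are thus not clean stages. All 12 RGC markers, 8 of 9 IPC markers, all 13 excitatory neuron markers and all 10 MGE markers were higher in their class than in the other cells. Since the names were given from these markers in the same cells, this describes the naming and is no separate support for it. Only 3 barcodes occurred in both libraries, 1 of them among the retained cells. Levels are given as counts per 1000000 UMIs of the class in that library (CPM). Groups that did not overlap had both libraries of 1 group above both of the other. The share of all genes that separate in this way was not computed, so such statements are a description only. Levels of different genes are not compared with each other.

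SoxB1 transcripts were high in RGC-like cells, 3.56- to 4.43-fold lower in IPC-like cells and close to 0 in excitatory neurons. Sox2, the SoxB1 gene used most widely as a progenitor marker, was at 242 CPM in replicate 2 and 232 CPM in replicate 4 of RGC-like cells. In IPC-like cells it was at 62.3 and 63.5 CPM, and in excitatory neuron-like cells at 2.27 and 2.14 CPM. The libraries lay close together in each class, and the 3 classes did not overlap. Sox1 was at 62.4 and 52.7 CPM in RGC-like cells, 13.7 and 10.9 CPM in IPC-like cells, and 0.44 and 0.80 CPM in excitatory neurons. Sox3, the X-linked SoxB1 gene, was at 79.0 and 90.7 CPM, 16.6 and 22.5 CPM, and 1.39 and 1.74 CPM in the same order. Both genes therefore stepped down at each stage in both libraries. Sox21 followed the same order, with 74.3 and 76.9 CPM in RGC-like cells, 23.9 and 14.3 CPM in IPC-like cells, and 0.22 and 0.80 CPM in excitatory neurons.

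Both SoxE genes were highest, among these 3 classes, in RGC-like cells. Sox9 was at 241 and 231 CPM in RGC-like cells, 27.6 and 27.4 CPM in IPC-like cells and 6.71 and 5.96 CPM in excitatory neurons, a graded order with no overlap. Sox8, a lowly expressed gene, was at 10.5 and 8.34 CPM in RGC-like cells. It gave 1 and 2 UMIs in IPC-like cells and 0 UMIs in the 508 and 786 excitatory neurons, where 3 counts, the limit that 0 allows, correspond to 0.166 and 0.149 CPM. The RGC level was thus at least 56-fold higher than in excitatory neurons, taking the floor per library.

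The SoxC genes were lowest, among these 3 classes, in RGC-like cells. Sox4 was at 373 and 387 CPM in RGC-like cells, 1570 and 1624 CPM in IPC-like cells and 1408 and 1505 CPM in excitatory neurons, so that RGC-like cells stood below both other classes, whose values lay close together. The IPC-like class includes clusters with raised excitatory neuron markers, and their part in this closeness was not tested. Sox11 was at 427 and 505 CPM, 2287 and 2486 CPM, and 3607 and 3787 CPM, so the levels were ordered by class without overlap. The step from IPC-like to excitatory neuron-like cells did not pass the edgeR test given below (adjusted p = 0.0573). Both SoxC genes were lowest outside the neural lineage or in the hem, with Sox11 at 74.9 and 46.0 CPM in the 9 and 18 endothelial-like cells.

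**Figure D1:**
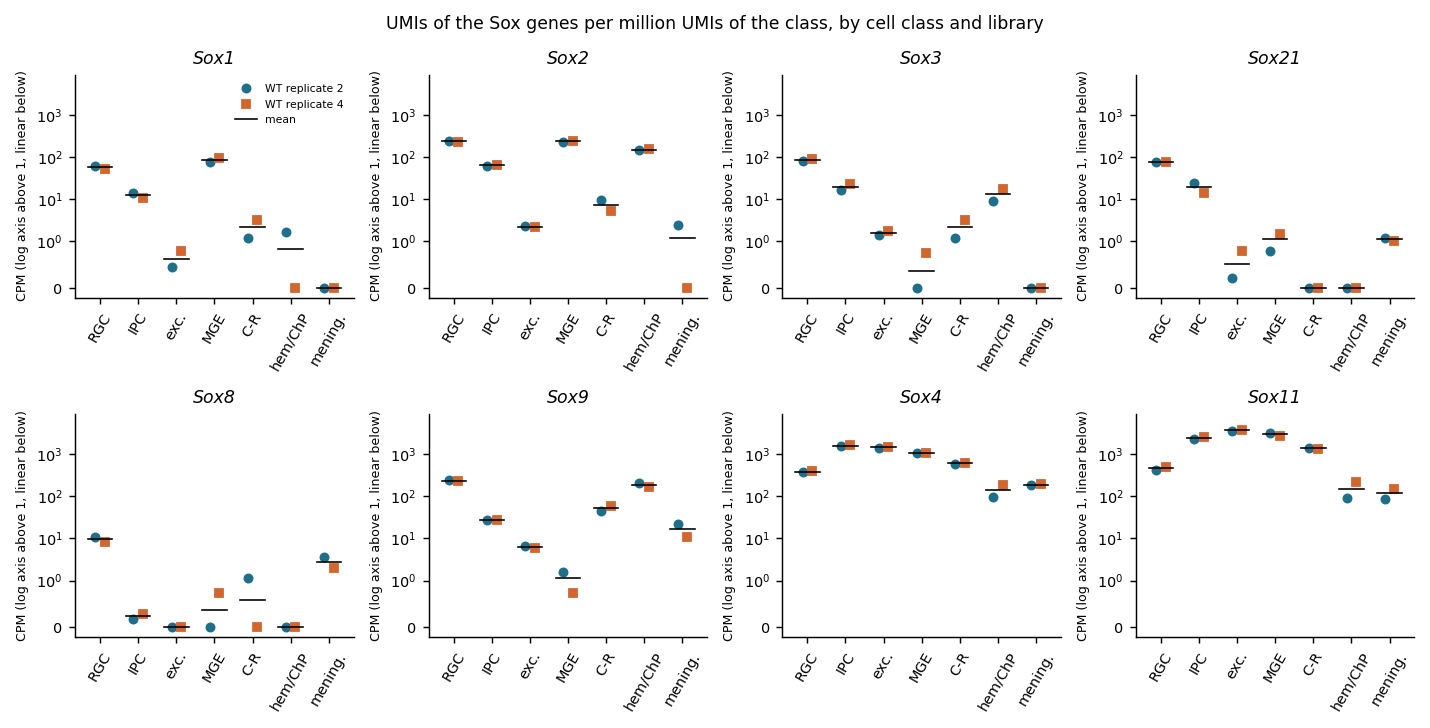
Level of each Sox gene in 7 cell classes, in CPM, on an axis that is logarithmic above 1 and linear below; circles are replicate 2, squares replicate 4 and bars their mean (n = 2; exc., excitatory neuron; C-R, Cajal-Retzius cell; ChP, choroid plexus; mening., meningeal). Sox2 stood at 237 CPM in RGC-like cells, 62.9 in IPC-like cells, 2.21 in excitatory neurons and 236 in MGE interneurons.

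The first comparison asked which Sox genes separate RGC-like from IPC-like cells. UMIs were summed per library and class and fitted with edgeR's quasi-likelihood test over 12984 genes, with Benjamini-Hochberg adjustment. All 8 members passed the threshold of 0.05, 6 higher and 2 lower in RGC-like cells, against a background of 36.1% of all genes tested. Sox9 had a log2 fold change of 3.02 ± 0.18 (SE, n = 2 sums per class, adjusted p = 9.77e-07), and Sox2 one of 1.83 ± 0.16 (adjusted p = 6.1e-06). Sox1 and Sox3 differed by 2.15 ± 0.23 and 2.03 ± 0.22 on the log2 scale, and Sox21 by 1.92 ± 0.27. The Sox21 difference was 2.33 in replicate 4 alone and 1.56 in replicate 2 alone. For Sox8, the 186 UMIs of RGC-like cells against 3 of IPC-like cells gave a ratio of 38.2 (95% exact interval 12.9 to 187, counting error only). Sox4 and Sox11 were lower in RGC-like cells, with log2 fold changes of -2.15 ± 0.23 (adjusted p = 2.94e-05) and -2.44 ± 0.33 (adjusted p = 0.000179).

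These p-values measure the spread between 2 libraries, pooled over all classes in the fit. The classes were made from the same cells, although with the Sox genes left out. When clustering and testing used separate random shares of the UMIs, 7 members passed here (32.8% of all genes in that fit), and Sox8 was no longer among the genes tested. The same split left 5 members between IPC-like and excitatory neuron-like cells (35.3% of all genes) and 7 between RGC-like and excitatory neuron-like cells (53.9%). It left 2 between MGE interneurons and excitatory neurons (17%), 5 between MGE interneurons and RGC-like cells (47.4%), and 5 between hem or choroid plexus-like and RGC-like cells (40.8%).

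From IPC-like to excitatory neuron-like cells, 6 of the 8 members passed, all of them higher in IPC-like cells (background 38%). Sox2 differed by 4.62 ± 0.19 on the log2 scale (adjusted p = 1.03e-07), Sox3 by 3.42 ± 0.27 and Sox9 by 1.91 ± 0.19. Sox1 differed by 4.03 ± 0.32, with 4.68 in replicate 2 alone and 3.59 in replicate 4 alone. Sox21 differed by 4.92 ± 0.39, with 6.41 in replicate 2 and 3.98 in replicate 4, where the excitatory neurons gave 4 and 16 UMIs. The call for Sox8 rested on 3 UMIs against 0 and was made under 6 of 12 alternatives. It was lost with the library as a block (adjusted p = 0.0546), as well as when cells without a class were kept in the fit (adjusted p = 0.0642, 5 members called), so no fold is given. Sox4 did not pass (log2 fold change -0.08 ± 0.22, adjusted p = 0.826). Sox11 missed the threshold (-0.84 ± 0.32, adjusted p = 0.0573). It passed under 5 of 15 alternatives, among them the library as a block (adjusted p = 0.0267), and the highest adjusted p among the alternatives was 0.264.

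Across the whole lineage, RGC-like against excitatory neuron-like cells, all 8 members passed (background 57%). The log2 fold changes were 6.45 ± 0.20 for Sox2, 5.45 ± 0.27 for Sox3, 4.93 ± 0.20 for Sox9, -2.23 ± 0.23 for Sox4 and -3.28 ± 0.35 for Sox11. Those of Sox1 and Sox21 were 6.18 ± 0.30 and 6.83 ± 0.37, with 6.78 and 7.96 in replicate 2 alone and 5.77 and 6.31 in replicate 4 alone, where excitatory neurons held 8 and 16 UMIs of Sox1 and 4 and 16 of Sox21 in replicates 2 and 4. The Sox2 signal left in excitatory neurons was set beside a class that should lack the gene. A Sox2 UMI was found in 5.91% and 3.94% of them, and in 10.0% and 0% of the 20 and 38 meningeal-like cells (2 and 0 UMIs, median depths 34730 and 24880 against 38350 and 27040 UMIs), too few cells to set a background level. After thinning to 5000 UMIs the excitatory neuron shares were 0.994% and 1.58%, and those of RGC-like cells 65.8% and 60.9%.

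**Figure D2:**
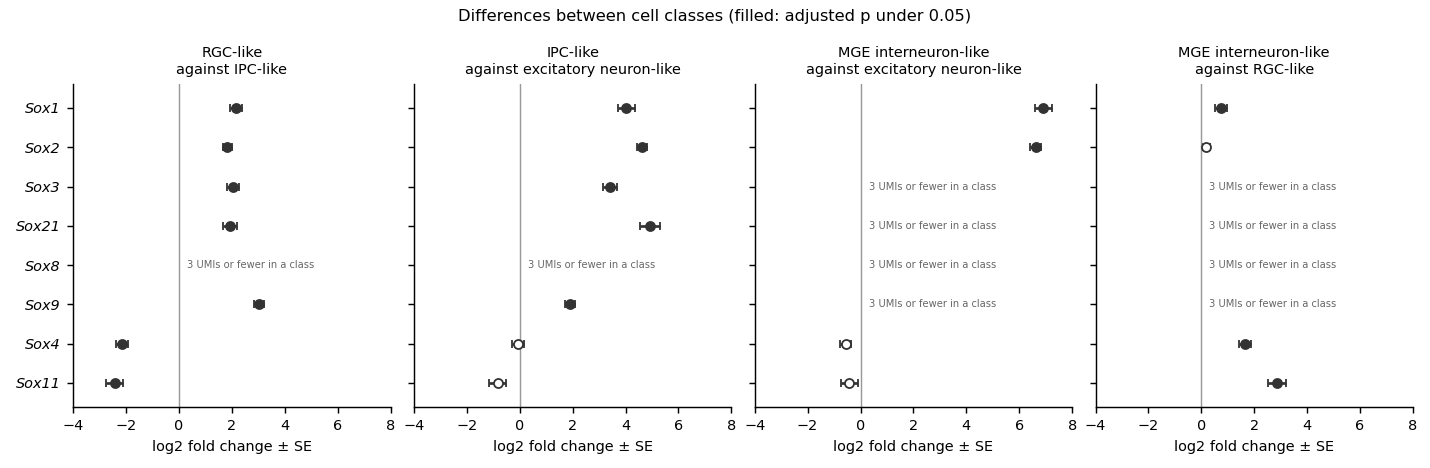
Log2 fold change of each Sox gene with its SE in 4 comparisons of cell classes; filled points passed the adjusted p threshold of 0.05 and genes with 3 UMIs or fewer in a class are marked instead of plotted. SoxB1 genes, Sox21 and Sox9 sit to the right in the first 2 panels, and Sox4 and Sox11 to the left in the first.

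Clusters within each class showed intermediate levels. One RGC-like cluster of 140 cells, led by Tmem132c, Pcdh15 and Ltbp1, had 11 of 12 RGC markers raised and also 8 of 9 IPC markers. In it Sox2 was at 126 CPM in both libraries and Sox4 at 842 and 782 CPM, whereas the other RGC-like clusters had 229 to 280 CPM of Sox2 and 267 to 351 CPM of Sox4 on average. Sox9 was at 229 and 186 CPM in this cluster, below the other RGC-like clusters in replicate 2 and within their range in replicate 4. Sox21 was at 16.4 and 25.3 CPM, against 107 and 105 CPM in the RGC-like cluster of 273 cells led by Gm29260 and Creb5. Among IPC-like clusters, Sox2 ranged from 30.5 to 90.6 CPM and Sox11 from 1493 to 3270 CPM, and the same cluster of 168 cells, with 7 of 12 RGC markers also raised, held the highest mean Sox2 and the lowest mean Sox11, although in replicate 4 Sox2 was slightly higher in the IPC-like cluster led by Top2a (95.5 against 93.1 CPM). Among excitatory clusters mean Sox11 was highest, at 5232 CPM, in the 97 cells led by Unc5d and Tfap2d, and lowest, at 2660 CPM, in the 277 cells led by Hs3st4, although in replicate 4 the cluster led by Tafa1 was slightly lower (2759 against 2792 CPM). Sox1 ranged more widely over the IPC-like clusters, from 1.83 to 22.1 CPM, and Sox21 from 3.41 to 35.3 CPM, both again highest in that cluster of 168 cells. It supplied 56 of the 77 Sox1 UMIs of the IPC-like class in replicate 2 and 38 of the 73 in replicate 4. The clusters were made from these cells, so these values are a description with no test.

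**Figure D3:**
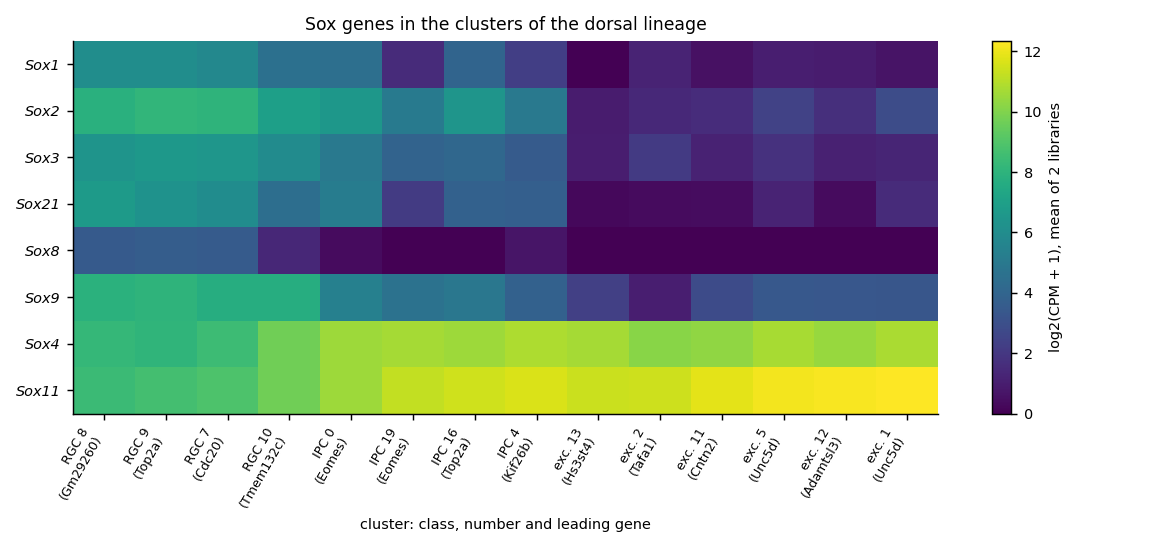
Mean level of each Sox gene over 2 libraries, as log2(CPM + 1), in clusters of RGCs, IPCs and excitatory neurons, ordered by Sox11 within each class. Cluster 10, which also carries IPC markers, has 811 CPM of Sox11 and 126 CPM of Sox2.

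RGC-like cells were then divided by whether a UMI of Neurog2, the proneural factor that starts glutamatergic neurogenesis, was found after thinning each cell to 5000 UMIs. This gave 67 and 125 cells with Neurog2 and 190 and 284 without. Sox4 was at 737 and 674 CPM in the cells with Neurog2 and 291 and 290 CPM in those without. Sox11 was at 651 and 648 CPM against 359 and 385 CPM. The groups did not overlap for either gene, but the share of all genes that also did not overlap was not computed. Of 7 members tested, these 2 passed (background 5.1%), with log2 fold changes of 1.29 ± 0.12 for Sox4 (adjusted p = 4.92e-06) and 0.81 ± 0.12 for Sox11 (adjusted p = 0.000409). Sox8 did not pass the filter on low counts, with 11 and 14 UMIs in the cells without Neurog2 and 5 and 6 in those with it.

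Sox2 was at 179 and 171 CPM in the cells with Neurog2 and 252 and 237 CPM in those without, and Sox9 at 185 and 186 CPM against 268 and 237 CPM. Neither overlapped, and neither passed without pairing (adjusted p = 0.068 for Sox2 and 0.103 for Sox9). With the library as a block, Sox2 (log2 fold change -0.46, adjusted p = 0.0124), Sox9 (-0.42, adjusted p = 0.0263) and Sox21 (-0.65, adjusted p = 0.0479) were lower in the cells with Neurog2, and 5 members passed in all, in a fit that called 10.5% of all genes. The Sox21 difference was -1.14 in replicate 4 alone and -0.02 in replicate 2 alone. Sox1 and Sox3 did not pass in either fit.

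Other features moved with this split. Of the cells with Neurog2, 56.7% and 44.8% were G1-like, compared with 15.8% and 10.2% of those without. The cluster with IPC markers supplied 29.9% and 38.4% of the cells with Neurog2 and 13.2% and 12.3% of the others. Without that cluster Sox4 still passed, with a smaller log2 fold change of 0.62 (adjusted p = 0.0398), and Sox11 did not (0.40, adjusted p = 0.27). Among S-like and G2/M-like cells alone, no member passed, with 0.61 for Sox4 (adjusted p = 0.114) and 0.54 for Sox11 (adjusted p = 0.159), and edgeR called 27 genes in all. Both alternatives were chosen after the data were seen.

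**Figure D4:**
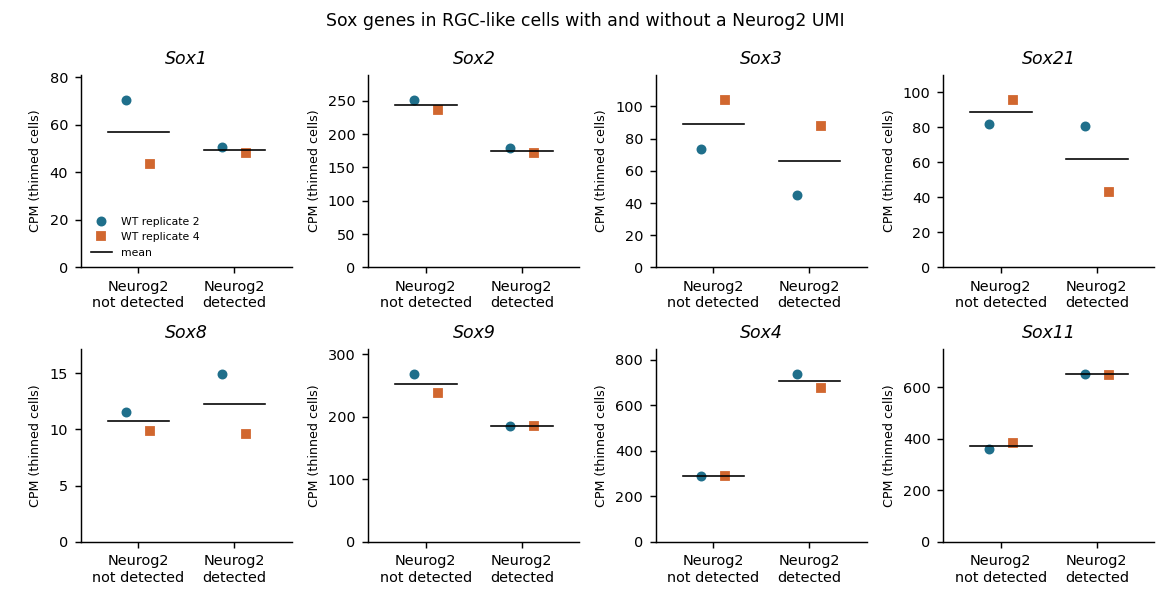
Level of each Sox gene in CPM, in RGC-like cells thinned to 5000 UMIs, without and with a Neurog2 UMI; circles are replicate 2, squares replicate 4 and bars their mean (n = 2). Sox4 averaged 290 CPM without and 705 CPM with Neurog2.

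Cell cycle phase was called per cell from lists of S and G2/M genes. Sox4 was at 731 and 757 CPM in the G1-like RGC-like cells (70 and 93 cells), 244 and 299 CPM in S-like cells and 291 and 307 CPM in G2/M-like cells. Sox11 was at 610 and 788 CPM, 338 and 409 CPM, and 409 and 470 CPM in the same order. Thus both SoxC genes were highest in G1-like cells in each library. The cluster with IPC markers, in which Sox4 was at 842 and 782 CPM and Sox2 at 126 CPM, moved with phase too. Among the thinned cells it supplied 29 of 68 and 52 of 85 G1-like cells, compared with 16 of 189 and 31 of 324 S-like and G2/M-like cells, and its part in the phase levels was not tested. Sox2 was lowest in G1-like cells, with 191 and 144 CPM in G1-like, 241 and 215 CPM in S-like and 274 and 287 CPM in G2/M-like cells. Sox9 varied less, from 191 CPM in G1-like cells of replicate 4 to 251 CPM in S-like cells of replicate 2. In IPC-like cells Sox11 was at 2239 and 2563 CPM in the 139 and 204 cells called G1-like, 1335 and 1293 CPM in S-like and 3629 and 3156 CPM in G2/M-like cells, the latter phases with 24 to 38 cells per library, so that G2/M-like cells were highest there. Mean Sox11 also ranged from 1493 to 3270 CPM over the IPC-like clusters, and the part of cluster make-up in these phase levels was not tested. G1-like RGC-like cells are also those in which Neurog2 was found most often. Within the G1-like cells thinned to 5000 UMIs, Sox4 was at 1005 and 964 CPM in the 38 and 56 cells with Neurog2 and 433 and 331 CPM in the 30 and 29 without, and Sox11 at 747 and 775 CPM against 327 and 455 CPM. Within S-like and G2/M-like cells, Sox4 was at 386 and 438 CPM with Neurog2 and 264 and 285 CPM without. Both libraries were thus higher with Neurog2 in either set of phases, with the difference tested only in the latter, where it did not pass. No test was run on phase.

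**Figure D5:**
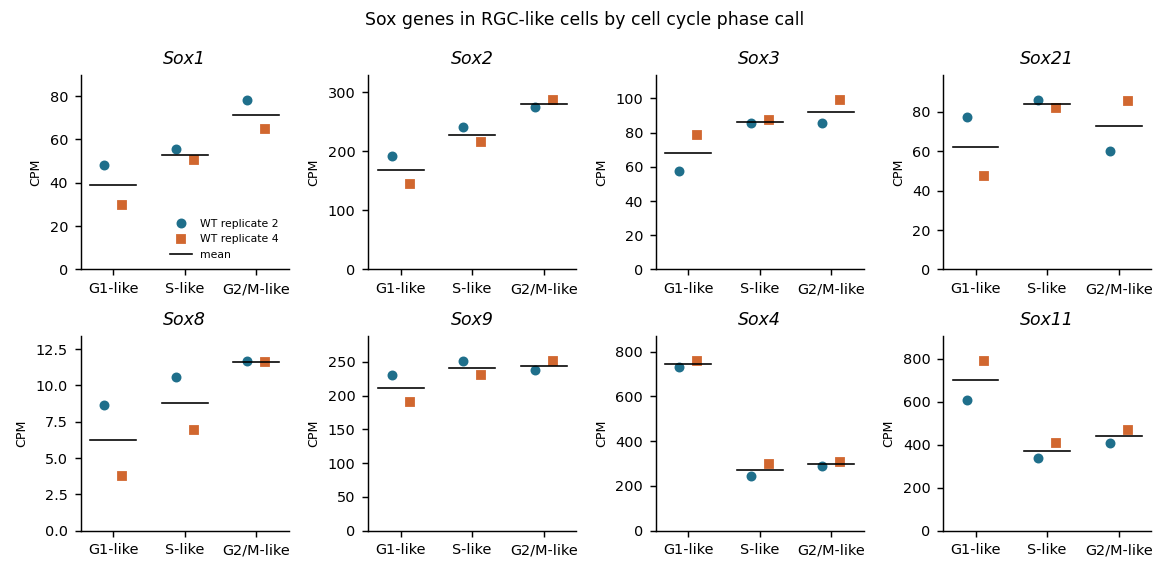
Level of each Sox gene in CPM in RGC-like cells called G1-like, S-like or G2/M-like; circles are replicate 2, squares replicate 4 and bars their mean (n = 2). Sox4 averaged 744 CPM in G1-like, 271 in S-like and 299 in G2/M-like cells.

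MGE interneurons are postmitotic, yet kept 2 of the 3 SoxB1 genes. Sox2 was at 231 and 241 CPM in MGE interneuron-like cells and Sox1 at 73.9 and 95 CPM, while Sox3 gave 0 and 1 UMIs. Sox21 gave 1 and 2 UMIs, Sox8 0 and 1, and Sox9 2 and 1. Against excitatory neurons, 3 of the 8 members passed (background 23.3%). Sox2 was higher by 6.62 ± 0.20 on the log2 scale (adjusted p = 1.27e-08) and Sox1 by 6.92 ± 0.31 (adjusted p = 2.24e-07). The third, Sox9, was lower, from 2 and 1 UMIs in the interneurons (log2 fold change -2.16 in replicate 2 alone and -3.05 in replicate 4 alone), and missed the threshold with separate shares of the UMIs (adjusted p = 0.0542). The median log2 fold change of all genes was -0.11 in this comparison and 35.4% of calls were higher in interneurons, compared with 46.3% under DESeq2's size factors. Sox4 (1070 and 1062 CPM in MGE interneurons) had a log2 fold change of -0.57 ± 0.22 and missed the threshold (adjusted p = 0.0882), but passed under 3 of 15 alternatives, among them the library as a block (adjusted p = 0.0462). Sox11 (3228 and 2709 CPM) did not pass (adjusted p = 0.379).

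Against RGC-like cells, a comparison added after the data were seen, 7 members passed (background 54.1%). The exception was Sox2, with a log2 fold change of 0.17 ± 0.15 (adjusted p = 0.381). Sox1 was higher in the interneurons by 0.73 ± 0.22 (adjusted p = 0.0171), with 1.02 in replicate 4 and 0.42 in replicate 2, and missed the threshold under 2 of 15 alternatives, among them separate shares of the UMIs (adjusted p = 0.113). Sox4 and Sox11 were higher by 1.66 ± 0.23 and 2.85 ± 0.34. From RGC-like to MGE interneuron-like cells, the ratio of levels was 222 for Sox3 (95% exact interval 39.8 to 8780), 204 for Sox9 (69.6 to 987), 65.5 for Sox21 (22.4 to 318) and 24.1 for Sox8 (4.27 to 956), each from 1 to 3 UMIs in the interneurons. Sox2ot, whose gene contains Sox2, was at 3065 and 3866 CPM in MGE interneurons and 256 and 250 CPM in RGC-like cells. Sox1ot, whose gene contains Sox1, was at 138 and 356 CPM in MGE interneurons and 40.8 and 34.7 CPM in RGC-like cells, so it too was higher in the interneurons (log2 fold change 2.90 ± 0.48). Whether unspliced reads of these genes added to the Sox2 and Sox1 counts was not tested, and the handling of intronic reads is not given in the sources used here.

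Sox1 was not even within the MGE class. It was at 160 and 217 CPM in the sub-cluster of 63 cells led by Nxph1, Dpp10 and Nxph2, and 7.39 and 8.63 CPM in the sub-cluster of 44 cells led by Sst, Nxph2, Nxph1 and Npy, where Sst and Npy encode neuropeptides. The other Sst-led sub-cluster of both libraries, with 29 cells, had 72.0 and 45.8 CPM of Sox1. Sox2 was at 216 and 276 CPM in the Nxph1-led sub-cluster and 216 and 167 CPM in the Npy-carrying one. These 2 sub-clusters therefore did not overlap in Sox1 but met in Sox2. Sox4 was at 1590 and 1506 CPM in the Nxph1-led one and 536 and 460 CPM in the Npy-carrying one, also without overlap. A sub-cluster of 17 cells of this class came from replicate 4 alone.

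Other GABAergic cells were too few in 1 of the libraries for a test, namely replicate 4 for the 18 cells without a sub-class (15 and 3 cells) and replicate 2 for the rest. In the 48 GABAergic precursor-like cells of replicate 4, Sox2 was at 332 CPM, Sox1 at 130 CPM, Sox21 at 70.3 CPM and Sox9 at 104 CPM. In the 32 CGE interneuron-like cells of replicate 4, named for the caudal ganglionic eminence, Sox2 was at 404 CPM and Sox1 at 107 CPM. Of the 8 markers of this class, 6 were higher in it than in other cells and 2 had no UMI in it. The striatal projection neuron-like cells of replicate 4 fell into a pair of sub-clusters of 34 cells each. In the one led by Ebf1 and carrying Isl1, Sox8 was at 43.4 CPM (23 UMIs) and Sox2 at 1.89 CPM (1 UMI). In the one led by Slit3 and Six3 and carrying Drd2, Sox8 gave 0 UMIs, which allows up to 5.5 CPM, and Sox2 was at 381 CPM. These are values of 1 library.

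Cells of the cortical hem or choroid plexus, the dorsal midline that borders the cortex, held Sox2, Sox9, Sox4, Sox11 and Sox3, while Sox1, Sox21 and Sox8 gave 2 UMIs or fewer per library. These cells formed a single cluster in which 11 of 12 markers of the class were raised, and also 8 of 12 RGC markers. Sox9 was at 210 and 165 CPM and Sox2 at 144 and 151 CPM in 33 and 21 cells. Sox21 and Sox8 gave 0 UMIs in both libraries, so Sox21 was at least 17.6-fold lower than in RGC-like cells. For the lowly expressed Sox8 the same floor allows only a statement of at least 1.91-fold. Against RGC-like cells 7 members passed, all lower (background 48.8%), in a comparison also added after the data were seen. The exception was Sox9 (log2 fold change -0.20 ± 0.17, adjusted p = 0.36). Sox3 was lower, at 9.11 and 17.5 CPM (log2 fold change -2.66 ± 0.32), with -2.97 in replicate 2 and -2.28 in replicate 4. Sox1 gave 2 and 0 UMIs, a ratio of RGC-like to these cells of 53.9 (14.9 to 446). Sox4 was at 96.9 and 189 CPM and Sox11 at 89.4 and 214 CPM, so replicate 4 was higher for both. Their log2 fold changes were -1.32 ± 0.23 (-1.80 in replicate 2 and -0.93 in replicate 4) and -1.53 ± 0.34 (-2.11 and -1.14), and both calls were lost at a Leiden resolution of 0.5 (-0.44, adjusted p = 0.0829 for Sox4 and 0.014, adjusted p = 0.978 for Sox11). At that resolution the class was a different set of 47 and 44 cells, and no Cajal-Retzius-like class was named. The Sox2 call (-0.57 ± 0.16, adjusted p = 0.0126) was lost under 3 of 14 alternatives, with separate shares of the UMIs (adjusted p = 0.309), at 5% mitochondrial UMIs (adjusted p = 0.21) and at 500 genes per cell (adjusted p = 0.0729). In Cajal-Retzius-like cells, early neurons of the marginal zone, Sox9 was at 44.8 and 58.4 CPM, above the 6.71 and 5.96 CPM of excitatory neurons, while Sox2 was at 9.43 and 5.22 CPM.

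Sox2 and Sox9 were also read in the same single cells. After thinning, 51.4% and 41.1% of RGC-like cells held both Sox2 and Sox9, where the product of the separate shares was 46.3% and 40.2%. In the meningeal-like cells, a thinned Sox2 UMI was found in 0% of either library and a Sox9 UMI in 5% and 2.78%. Over the 14 sums of 7 classes, which share libraries and depth, log2(CPM + 10) of Sox4 and Sox11 had a Pearson correlation of 0.97, and that of Sox3 and Sox21 one of 0.91. The genes most like each member were Wnt7a and Gm45025 for Sox1, Npas3, Snx25 and Cux1 for Sox2, Fgfr3, Smchd1 and Aldoc for Sox3, and Supt16, Dct and Xrcc2 for Sox21. For Sox8 they were Garem1, Acsbg1 and Psph, for Sox9 Gm28376, 2010204K13Rik and Jph1, for Sox4 Ldb1, Srrm4 and Kcnn2, and for Sox11 Srrm4, Dpysl5 and Kmt2e, with coefficients from 0.88 for Cux1 to 0.99 for Fgfr3.

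Genes tied to these factors in textbooks were read beside them. Of 10 progenitor genes tied to SoxB1 and SoxE, 5 were higher and 1 lower in RGC-like than in IPC-like cells, where 36.1% of all genes were called, with a median log2 fold change of 0.84 against 0.03 for all genes. Nes, an intermediate filament gene with a SoxB1-dependent enhancer, was higher by 2.84 ± 0.12, and Fabp7, a lipid-binding protein of radial glia, by 3.27 ± 0.82. Nfia, a partner of SOX9 in gliogenesis, did not pass (-0.51 ± 0.34, adjusted p = 0.265). Of 6 neuronal genes tied to SoxC, 5 were lower in RGC-like cells and 0 higher (median -3.18), among them Tubb3, a neuronal tubulin, at -3.71 ± 0.42 and Dcx, a microtubule protein of migrating neurons, at -4.44 ± 0.36. In RGC-like cells with Neurog2, 3 of the 4 neuronal genes tested were higher than in those without and 3 of the 10 progenitor genes lower (background 5.1%), with Dcx at 3.11 ± 0.36 and Fabp7 at -1.02 ± 0.12. Those 2 passed under every alternative that tested them, whereas Tubb3, Nes and Gli3 passed under 4 of 9 and Map2 under 6 of 9. In MGE interneurons, where Sox2 did not differ detectably from RGC-like cells, all 10 progenitor genes were lower than in RGC-like cells (background 54.1%), Nes by -5.97 ± 0.19 and Vim, another intermediate filament gene, by -6.54 ± 0.23. Of 12 other Sox genes 4 were tested. Sox5 and Sox12 were lower and Sox6 and Sox13 higher in RGC-like cells than in excitatory neurons, and Sox6, which acts in MGE interneuron development, was higher in MGE interneurons than in excitatory neurons by 5.05 ± 0.31. Of the 4 POU partners of SoxB1, Pou3f1 was lower in RGC-like than in IPC-like cells (-3.79 ± 0.67) and 3 did not pass, among them Pou3f2 (-0.78 ± 0.36, adjusted p = 0.115), a share below the 36.1% of all genes. Both long non-coding genes, Sox2ot and Sox1ot, were higher in RGC-like than in IPC-like cells, by 3.32 ± 0.71 and 3.75 ± 0.62.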

How the data were processed

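Single-cell RNA-seq counts of 2 WT libraries were analysed. The deposited matrices hold UMI counts per gene and barcode, not normalized, which the authors made with Cell Ranger 7.0.0 and mm10 per the labels' processing notes; the handling of intronic reads is not given in the sources used here. Groups were taken from GEO's sample titles.

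Barcodes under 1000 genes or over 10% mitochondrial UMIs were removed, and Scrublet doublets (0.991% and 2.44%) were left out. Cells were clustered with scanpy 1.11.5 (2000 variable genes, 30 principal components, 20 neighbours, Leiden resolution 1), with the Sox genes and their lists (42 genes) left out. Clusters were named from marker lists; the scoring rule was set with the clusters in view, and 116 cells of 1 shallow cluster stayed unnamed. UMIs were summed per library and class (at least 10 cells in each library) and tested with edgeR 4.0.16 (R 4.3.3; glmQLFit, TMM, filterByExpr, Benjamini-Hochberg adjustment over all genes tested, threshold 0.05). All classes that met the minimum entered 1 fit and shared its estimate of the spread. Standard errors are the log2 fold change over the root of F, and are approximate. Cells without a class were left out of the fit; this was decided after a first fit with them had been seen, and that fit is given as an alternative. The Neurog2 comparison had a fit of its own on cells thinned to 5000 UMIs. The scripts were tested on simulated data. DESeq2 1.42.0 was an alternative. Intervals and floors (3 counts) cover counting error only, and since the labels do not say that the replicates are separate animals, p-values measure only the spread between these libraries.

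A library number marks 1 sample, so the sums of 1 library are paired. Deviations from the class means correlated with 0.01 to 0.44 (median 0.14) over 21 pairs of classes, and the fit with the library as a block is given where it changes a call. All 8 members were named whatever their result, with 2 to 4 genes of each list, and the 3 genes most like each member by Pearson correlation, of which 1 is not reported here. The members and lists were chosen with earlier results of these data known. Gene positions and promoters are from RefSeq (GRCm38.p6), exon counts from GENCODE; GRCm38 is the same build as mm10.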

Additional observations from a re-analysis of the deposited data

Results flagged for a closer look

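The 116 cells of the cluster without a name (61 and 55 cells, median 4798 UMIs) entered no comparison, yet held UMIs of several members. Their level was 65.1 CPM for Sox2 (49.7 and 80.5), 59.0 CPM for Sox9 (47.8 and 70.2), 616 CPM for Sox4 (664 and 568) and 993 CPM for Sox11 (985 and 1001). Each of these exceeded the level that 3 counts would give in either library, which was 5.74 and 6.20 CPM. The cluster was led by Lgals1, Cyba and Tagln2, and 4 of 7 erythroid and 4 of 12 RGC markers were raised in it; their part in these levels was not tested.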

How the results depend on the processing

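With 2 libraries of 1 group there were 2 sums per class. Tests between classes drew their spread from all classes in the fit, and the class names are rebuilt. Of 760 values of 55 fold changes under alternatives, 722 kept their direction and side of the threshold, 13 passed newly, 16 no longer passed and 9 changed sign, none of the last in a member that passed except Sox11 in hem or choroid plexus-like cells. The cause of each change was not tested.

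From RGC-like to IPC-like cells, 7 or 8 members were called under every alternative, and 3025 genes at Leiden resolution 0.5 in place of 4685. From MGE interneuron-like to excitatory neuron-like cells, 1906 genes were called in place of 3030 when clustering and testing used separate shares of the UMIs. Between RGC-like cells with and without Neurog2, the count of 449 genes became 107 with DESeq2's Wald test, 927 (5 members) with the replicate block, 92 (1 member) without clusters that carry markers of a second class, and 27 (0 members) in S-like and G2/M-like cells alone. The block changed no other call of a member than those given above. Keeping cells without a class in the fit, chosen after seeing the data like the mixed-cluster and S-like and G2/M-like alternatives, gave 3900 genes from RGC-like to IPC-like cells and lost only the Sox8 call from IPC-like to excitatory neuron-like cells.

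Log2 fold changes that changed sign were those of Sox4 between IPC-like and excitatory neuron-like cells (0.0935 at 5% mitochondrial UMIs, 0.0461 with separate shares of the UMIs, 0.0391 with all genes), Sox3 between MGE interneurons and excitatory neurons (0.71 with doublets kept), Sox2 between MGE interneurons and RGC-like cells (-0.0432 with all genes, -0.00576 without mixed clusters), Sox11 between hem or choroid plexus-like and RGC-like cells (0.0136 at resolution 0.5), and Sox1 and Sox3 between cells with and without Neurog2 (0.19 and 0.0352 in S-like and G2/M-like cells).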
